A study of Mus musculus with 4 samples.

Results

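Cadherins and protocadherins, the calcium-dependent adhesion molecules of the cadherin superfamily with symbols Cdh or Pcdh, were compared between neural cultures of APPswe/PS1dE9 mice and of wild-type (WT) mice. The genes were chosen by symbol, with Cdh followed by a digit or with Pcdh at the start, and 93 genes of the RefSeq gene table had such a symbol. Of these, 70 had a probe on the array, with 89 probes in all. A gene was kept when a probe lay well above background in the RNA of one genotype on at least 3 of the 4 arrays, and its probe of highest mean intensity was used. This left 49 genes of the 13677 named genes tested: 15 cadherins, 10 non-clustered protocadherins and 24 protocadherins of the alpha, beta and gamma clusters. The values that chose them were detection calls and mean intensity over both genotypes. At least 3 arrays were well above background in both genotypes in 45 of the genes. Cdh19 and Pcdhb8 were kept through APPswe/PS1dE9 alone and Cdh7 and Pcdhb13 through WT alone, so their choice was not free of the difference between genotypes. Of the 49, 46 were well above background in the better genotype on 4 arrays. Just inside the detection limit lay Pcdhb8, Pcdhb13 and Cdh19, on 3 arrays, and just outside it lay Pcdhb11, on 2.

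The cells were neural precursors isolated on embryonic day 13 from the telencephalon of C57BL/6 mice, either WT or carrying APPswe and PS1dE9, transgenes of familial Alzheimer's disease. They grew for 5 days as neurospheres in EGF and FGF2 (each at 20 ng/ml), and both genotypes were then kept for 7 days on poly-L-lysine and laminin without these factors, in medium with B-27. Each array paired 1 APPswe/PS1dE9 RNA with 1 WT RNA, each from 100 ng of total RNA, and the transgenic RNA carried Cy3 in replicates 1 and 2 and Cy5 in the other two. The labels call them 4 biological replicates of each genotype without naming separate animals or litters. The p-values therefore cover the spread between these arrays alone, which may be technical. The labels name neither the promoter of the transgenes nor pooling of embryos. All values are relative to WT, and because the RNA came from whole cultures, fewer cells of a type and less RNA per cell cannot be told apart.

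Classical cadherins join cells of like kind through their outer domains and hold the actin skeleton through catenins on their inner side. Type I members such as N-cadherin (Cdh2) bind strongly, while type II members are expressed in patterned subsets of neurons. Non-clustered delta-protocadherins adhere more weakly and signal to actin regulators, and the clustered protocadherins, expressed in different combinations from neuron to neuron, give single neurons a surface identity used in self-avoidance. N-cadherin and several protocadherins are cut at the membrane by ADAM10 and then by gamma-secretase.

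Promoter windows of Pcdh7, the gene with the lowest ratio of all 49, and of Cdh12 and Cdh8, the type II cadherins with the lowest ratio and with the most even ratios, are shown because each was below 0 on 4 of 4 arrays, and of the 3 Pcdh7 alone had an adjusted p under 0.05 by limma. Each window is from RefSeq (GRCm38.p6) and runs from 250 bases before to 50 after the annotated start, on the strand of the gene. The E-box searched was CAGGTG or, on the other strand, CACCTG, the element bound by the cadherin repressors of the Snail and Zeb families, and it stands in capitals.
Pcdh7 at chr5:57717831-57718130, plus strand: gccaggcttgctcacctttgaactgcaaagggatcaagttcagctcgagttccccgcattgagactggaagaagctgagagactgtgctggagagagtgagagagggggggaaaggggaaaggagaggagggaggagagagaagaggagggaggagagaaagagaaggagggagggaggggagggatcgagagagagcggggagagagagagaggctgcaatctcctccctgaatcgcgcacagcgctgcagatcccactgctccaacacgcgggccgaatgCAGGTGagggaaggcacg
Cdh12 at chr15:21111202-21111501, plus strand: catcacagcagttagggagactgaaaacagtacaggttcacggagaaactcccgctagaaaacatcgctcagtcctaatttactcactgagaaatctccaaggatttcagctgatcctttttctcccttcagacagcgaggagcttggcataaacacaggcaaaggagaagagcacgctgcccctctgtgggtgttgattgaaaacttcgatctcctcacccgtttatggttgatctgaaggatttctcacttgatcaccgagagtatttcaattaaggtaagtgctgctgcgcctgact
Cdh8 at chr8:99416422-99416721, minus strand: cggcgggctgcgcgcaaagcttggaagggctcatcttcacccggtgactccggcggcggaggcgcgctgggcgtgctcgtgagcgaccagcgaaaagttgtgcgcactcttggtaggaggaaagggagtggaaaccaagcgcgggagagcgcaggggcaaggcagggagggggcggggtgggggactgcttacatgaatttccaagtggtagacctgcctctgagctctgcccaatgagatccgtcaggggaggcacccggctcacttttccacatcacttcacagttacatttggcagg
Pcdh7 had 1 match, at base 283 of the window, downstream of the start, and these letters were not in the windows of Cdh12 and Cdh8. Of the 49 genes, 19 had a window, with 22 windows in all, and the motif was in 5 windows of 3 genes (Cdh7, Pcdh15 and Pcdh7). It was in 20.2% of all 32851 windows of that length.

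Of 59305 probe spots per array, 47.5% to 59.6% were well above background in a given channel and 0 were saturated. The cultures held neural RNA, with App at a log2 ratio of 0.12 ± 0.06 on a probe whose match to the transgene is not known: all 6 neuronal, 6 progenitor, 6 astrocyte and 7 oligodendrocyte lineage markers were measured. Replicate 1 and replicate 3 paired cultures of unlike sex. On replicate 1 the Y-linked gene Eif2s3y was well above background in the APPswe/PS1dE9 RNA alone and Xist in the WT RNA alone. On replicate 3 it was the other way round. On replicates 2 and 4 Xist was well above background in both RNAs and Eif2s3y in neither. The Y-linked Ddx3y was flagged well above background in both RNAs of replicate 2, on a spot left out as an outlier, so the sex of those cultures is less certain.

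Few cadherin and protocadherin genes differed between the genotypes. By limma with Benjamini-Hochberg adjustment over all 20604 features tested, at a threshold of 0.05, Cdh13 was higher in APPswe/PS1dE9 cultures, Pcdh7 and Pcdhb17 were lower and the other 46 did not pass. Among all features 10.5% passed in either direction, 8.24% (1698) higher and 2.28% (470) lower. Centring each array on its median without loess gave another split, 1310 higher and 1313 lower, and 1 higher and 5 lower among the 49 genes. That fit also gave these genes 1 common SE of 0.12, and the cause of the change was not tested. The fitted log2 ratio of APPswe/PS1dE9 over WT was above 0 in 17 of the 49 and below 0 in 32, with a median of -0.05. Over all 20604 features 9598 were below 0, and the median was 0.01. With the processed signals 41 of the 49 were below 0 (median -0.14, against -0.06 over all features). Within 0.2 of 0 on the log2 scale lay 37 genes (75.5%, against 76.6% of all features), and the 95% interval of 44 genes lay within 0.5 of 0. Without adjustment, p was under 0.05 in 9 genes with a negative ratio and 3 with a positive one, 12 of 49, and among all features in 25.6%, so the share in these genes was near the background. The sign was the same on all 4 arrays in 11 genes, 3 of them higher and 8 lower, and 28.6% of all features had 1 sign on all 4.

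**Figure D1:**
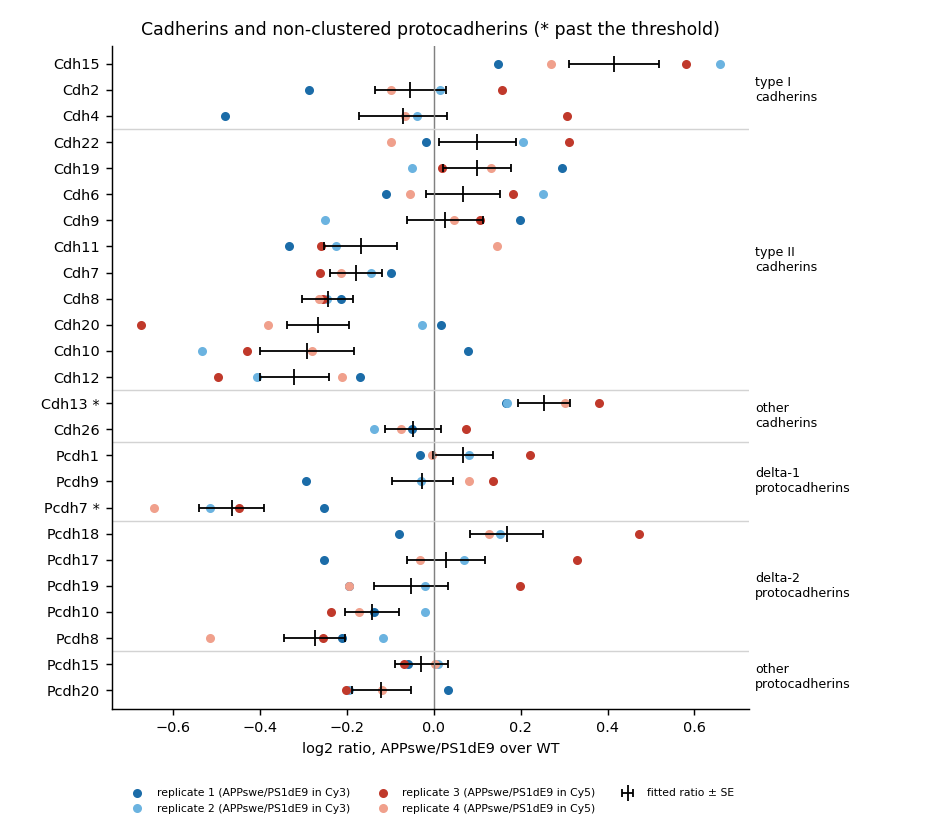
Log2 ratio of APPswe/PS1dE9 over WT (horizontal axis) of the 15 cadherins and 10 non-clustered protocadherins, by family. Points are the 4 arrays and bars the fitted ratio ± SE; an asterisk marks Cdh13 and Pcdh7, the members past the threshold, and most other bars lie near 0 with arrays on both sides.

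Of the 3 type I cadherins kept, 0 passed the threshold and 1 had an unadjusted p under 0.05. N-cadherin (Cdh2), the main adhesion molecule of neural precursors and synapses, had log2 ratios of -0.29, 0.01, 0.16 and -0.10 on replicates 1 to 4. These fell on both sides of 0, and the fitted ratio was -0.05 ± 0.08 (SE, n = 4; 95% interval -0.25 to 0.14; adjusted p = 0.729 by limma). Its second probe was at 0.00. R-cadherin (Cdh4), a close relative found in retina and forebrain, was at -0.48, -0.04, 0.31 and -0.07, and both of its probes gave the lowest value on replicate 1 and the highest on replicate 3, the arrays of unlike sex. M-cadherin (Cdh15), known from muscle precursors, was the highest of all 49 genes, with log2 ratios of 0.15, 0.66, 0.58 and 0.27. All 4 arrays were on the higher side, by unequal amounts, and the fitted ratio of 0.41 ± 0.10 missed the threshold (adjusted p = 0.0582 by limma). Its WT signal was well above background on 3 arrays, and the channel levels of the genotypes overlapped. E-cadherin (Cdh1) and P-cadherin (Cdh3), the epithelial members, were not well above background in any RNA.

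Of the 10 type II cadherins kept, 0 passed the threshold by limma and 5 had an unadjusted p under 0.05, against 25.6% of all features. The ratio was negative in 6 of them, those 5 included, and the median was -0.17. With the processed signals, which were not centred, 8 of the 10 were negative and the median was -0.40, against -0.06 over all features. Cdh12 had the lowest ratio of the family. Its log2 level in the WT channel was 7.64, 7.65, 7.72 and 7.71 on replicates 1 to 4, and in the APPswe/PS1dE9 channel 7.47, 7.24, 7.23 and 7.50. Every WT level was above every APPswe/PS1dE9 level, and the fitted log2 ratio was -0.32 ± 0.08 (n = 4; adjusted p = 0.0561 by limma). The scanner software's processed signals, without an offset, put Cdh12 at -0.83 (adjusted p = 0.0672). Cdh8, known for restricted expression in forebrain neurons, had nearly equal values on the 4 arrays, at -0.21, -0.25, -0.25 and -0.26, with a fitted ratio of -0.24 ± 0.06 (adjusted p = 0.0527 by limma). With the processed signals Cdh8 was at -0.58 (adjusted p = 0.0533).

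Cdh20 and Cdh10 were less even from array to array. Cdh20 was at 0.02, -0.03, -0.67 and -0.38, so its negative ratio came from the arrays with APPswe/PS1dE9 in Cy5 (fitted ratio -0.27 ± 0.07, adjusted p = 0.0728 by limma). Cdh10 was at 0.08 on replicate 1 and at -0.53, -0.43 and -0.28 on the other arrays, with a fitted ratio of -0.29 ± 0.11 (adjusted p = 0.155 by limma). The ratio of Cdh10 was -0.45, -0.14, -0.25 and -0.33 without replicates 1 to 4 in turn. Of these fits it passed the threshold only in the one without replicate 1, the array that stood opposite to the others. Cdh7 was at -0.10, -0.14, -0.26 and -0.21, in the same direction on 4 arrays, with APPswe/PS1dE9 well above background on 2 of them (fitted ratio -0.18, adjusted p = 0.122). Cdh11, a cadherin of mesenchymal cells that is found in the brain as well, was at -0.33, -0.23, -0.26 and 0.15. Replicate 4 stood opposite to the other arrays, and the second probe of Cdh11 had a ratio of -0.02. Cdh22, Cdh19, Cdh6 and Cdh9 had fitted ratios of 0.10, 0.10, 0.07 and 0.03, with values on both sides of 0 in each. Cdh19, a cadherin of glial cells of the nerve, had a WT signal not well above background on each of the 4 arrays, and it was kept through the APPswe/PS1dE9 channel alone. Its 95% interval, -0.09 to 0.29, held 0 (adjusted p = 0.490 by limma).

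T-cadherin (Cdh13), which is held in the membrane by a lipid anchor and lacks the inner part that binds catenins, was the cadherin that rose. Its log2 ratios were 0.17, 0.17, 0.38 and 0.30 on replicates 1 to 4. The increase was seen on all 4 arrays, was larger with APPswe/PS1dE9 in Cy5 than in Cy3, and came to 1.19-fold (0.25 ± 0.06, n = 4; 95% interval 0.11 to 0.40; adjusted p = 0.0494 by limma). In the channels the WT level was 11.22, 11.43, 11.20 and 11.30 and the APPswe/PS1dE9 level 11.39, 11.60, 11.58 and 11.60, and these ranges overlapped because replicate 1 of the transgenic cultures was below replicate 2 of the WT. The call was lost without any one of the replicates (adjusted p = 0.0989, 0.123, 0.179 and 0.149 without replicates 1 to 4), while the ratio stayed between 0.23 and 0.27. With median centring it was 0.11 (adjusted p = 0.620), and the call was also lost with an offset of 10, with the processed signals and without the dye term (adjusted p = 0.0762, 0.143 and 0.0936). Cdh26, the other measured member outside the classical families, was at -0.05 ± 0.06.

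The largest difference past the threshold was in Pcdh7, a delta-1 protocadherin studied in axon growth and in bone and neural cells. Its log2 level was 8.54, 8.84, 8.96 and 9.09 in the WT channel of replicates 1 to 4 and 8.29, 8.32, 8.51 and 8.44 in the APPswe/PS1dE9 channel. The levels of the genotypes did not overlap, and on each array APPswe/PS1dE9 was lower, by 0.25 at the least and 0.64 at the most. The fitted fall was 1.38-fold (log2 ratio -0.47 ± 0.07, n = 4; 95% interval -0.65 to -0.28; adjusted p = 0.0147 by limma). The other probes of Pcdh7, dimmer ones, were at -0.25 and -0.25 and lower on 4 of 4 arrays each, so the size depended on the probe and the direction did not. Leaving out replicate 3 ended the call, with a ratio of -0.51 and an adjusted p of 0.0824 by limma. Leaving out replicate 4 ended it too, with -0.42 and an adjusted p of 0.126. No gene of the 49, Cdh13 and Pcdhb17 included, passed in either of these fits, so the loss was not particular to Pcdh7. Without replicate 1 and without replicate 2 Pcdh7 kept its call, at -0.53 and -0.40. The delta-1 members Pcdh9 and Pcdh1 had fitted ratios of -0.03 ± 0.07 and 0.07 ± 0.07. The brightest and the dimmest kept probe of Pcdh9 had opposite signs on all 4 arrays.

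**Figure D2:**
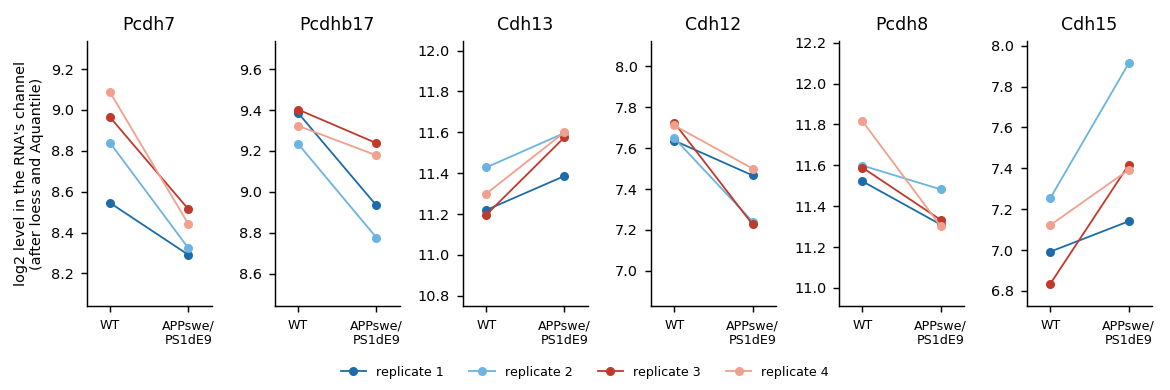
Log2 level (vertical axis) of Pcdh7, Pcdhb17, Cdh13, Cdh12, Pcdh8 and Cdh15 in the WT and the APPswe/PS1dE9 channel of each array, after loess and Aquantile normalisation; lines join the cultures that shared an array, and each panel has its own range. The lines fall in Pcdh7, Pcdhb17, Cdh12 and Pcdh8 and rise in Cdh13 and Cdh15, by unequal amounts from array to array.

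Of the 5 delta-2 protocadherins 0 passed by limma, 1 had an unadjusted p under 0.05, and their median ratio was -0.05, which turned to 0.05 without replicate 4. Pcdh8, known as arcadlin, an activity-induced synaptic protein that draws N-cadherin into the cell, was at -0.21, -0.12, -0.26 and -0.51. It was lower on all 4 arrays and its channel levels did not overlap, from 11.30 to 11.48 in APPswe/PS1dE9 and from 11.52 to 11.82 in WT, and the fitted ratio was -0.27 ± 0.07 (adjusted p = 0.0632 by limma). The levels of Pcdh10, which recruits the WAVE actin complex, did not overlap either, with a smaller ratio of -0.14 ± 0.06 (adjusted p = 0.218) and its second probe at -0.10. In all, 4 of the 49 genes had levels that did not overlap (Pcdh7, Pcdh8, Pcdh10 and Cdh12, each lower in APPswe/PS1dE9), against 12.6% of all features. Pcdh18 was the highest of the subgroup, at -0.08, 0.15, 0.47 and 0.13 (fitted ratio 0.17 ± 0.08, adjusted p = 0.275).

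Pcdh19, the X-linked gene of an epilepsy of girls whose protein pairs with N-cadherin, was at -0.20, -0.02, 0.20 and -0.20. Replicates 1 and 4 were alike and replicate 3 was the highest, and the fitted ratio was -0.05 ± 0.09 (95% interval -0.26 to 0.15; adjusted p = 0.748 by limma). On replicates 1 and 3 Xist was at -2.85 and 3.40, so Pcdh19 and Xist had the same sign there. Pcdh17, which like Pcdh10 acts through the WAVE complex, was at -0.25, 0.07, 0.33 and -0.03. Pcdh20 was at -0.12 ± 0.07. Pcdh15, the protein of the hair cell tip link, was at -0.03 ± 0.06, with its 3 probes between -0.03 and 0.01.

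Of the 24 clustered protocadherins, 1 passed, lower, 8 had a ratio above 0 and 16 below, and the median was -0.05. The 6 alpha genes kept all had ratios within 0.2 of 0 and an unadjusted p above 0.05, with 4 below 0 and a median of -0.04. With the processed signals all 6 were below 0, with a median of -0.13 against -0.06 over all features, and Pcdha12 was at -0.46 (adjusted p = 0.0710 by limma). Pcdha11, the highest of them, was at -0.34, 0.66, 0.09 and -0.03, so its fitted ratio of 0.10 ± 0.16 was set by replicate 2, and without that replicate it was -0.15. Pcdha12 was the lowest, at -0.13 ± 0.07. Pcdhac2, a constitutive isoform at the end of the cluster, had ratios of -0.02, 0.03, -0.05 and -0.20, and its probes gave -0.06 and 0.06. Genes of the alpha and of the gamma cluster share their last exons, and beta genes are similar in sequence. Where in a gene a probe lies was not used here, so a clustered gene named from its probe is uncertain where transcripts share sequence.

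In the beta cluster 12 of the 17 genes kept had a negative ratio, with a median of -0.08. With the processed signals 16 had one, with a median of -0.29, against -0.06 over all features. Pcdhb17 was the member past the threshold. Its log2 ratios were -0.45, -0.46, -0.16 and -0.14. The gene was lower on every array and more so with APPswe/PS1dE9 in Cy3 than in Cy5, and the fitted fall was 1.24-fold (-0.31 ± 0.06, n = 4; 95% interval -0.45 to -0.16; adjusted p = 0.0269 by limma). Its dye term was not past the threshold after adjustment. Without the dye term, which then counts this spread as error, Pcdhb17 lost its call (adjusted p = 0.0826), and it lost it without replicate 2 (adjusted p = 0.0602), replicate 3 (0.125) or replicate 4 (0.130). Its neighbours in the cluster, Pcdhb16 and Pcdhb18, were at -0.08 ± 0.07 and 0.03 ± 0.06. Pcdhb3 was lower on 4 of 4 arrays as well, at -0.23, -0.21, -0.16 and -0.33 (fitted ratio -0.23 ± 0.06, adjusted p = 0.0771 by limma). Pcdhb6 had the highest ratio of the cluster, 0.22 ± 0.16, with 0.91 on replicate 2 and between -0.10 and 0.14 on the other arrays.

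Pcdhga9 was the gamma gene kept, of 6 with a probe. Its log2 ratios were 0.03, 0.19, 0.54 and 0.22, higher on 4 of 4 arrays, with a fitted ratio of 0.24 ± 0.08 (adjusted p = 0.109 by limma). Its second probe did not share this, with -0.29 on replicate 1 and a fitted ratio of 0.05. The mean log2 intensity was 14.80 for the probe used and 9.27 for the second. Which transcripts of the gamma cluster each probe reads was not tested, so the ratio may not be that of Pcdhga9 alone.

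**Figure D3:**
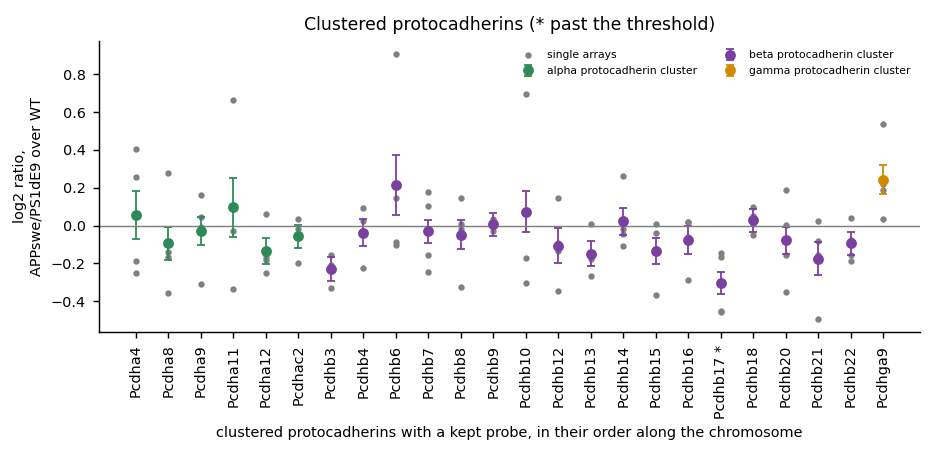
Log2 ratio of APPswe/PS1dE9 over WT (vertical axis) of the 24 clustered protocadherins kept, in chromosomal order from the alpha through the beta to the gamma cluster. Grey points are the 4 arrays and coloured points with bars the fitted ratio ± SE; Pcdhb17, marked by an asterisk, is past the threshold, and its neighbours lie near 0.

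The other 21 genes with a probe were not kept. Their best genotype was well above background on 0 arrays in 13 genes, on 1 array in 7 and on 2 in 1. Besides Cdh1 and Cdh3 they included VE-cadherin (Cdh5), the cadherin of endothelial junctions, which was not well above background in any RNA. Of the 9 endothelial markers with a probe, Cldn5 and Emcn were not either, while Kdr, Pecam1, Flt1, Egfl7 and Slco1a4 were measured. Pcdh11x, the other X-linked gene with a probe, was well above background on 1 array in each genotype. Of the gamma genes, Pcdhga1, Pcdhga5, Pcdhga10, Pcdhgb1 and Pcdhgc5 were not kept, and of the beta genes Pcdhb1, Pcdhb2, Pcdhb5, Pcdhb11 and Pcdhb19 were not. Cdh23, the partner of Pcdh15 in the tip link, Cdh16, Cdh17, Cdh18, Cdh24, Pcdh12 and Pcdhac1 were the others. A gene not well above background has no measured ratio, so these data do not show whether it differed.

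Genes that work with cadherins were measured in the same fit. Of the catenins and actin linkers 2 of 13 tested were higher and 0 lower: the plakophilin Pkp2, a desmosomal relative of p120 catenin (0.82 ± 0.07, adjusted p = 0.00163 by limma), and vinculin (Vcl, 0.39 ± 0.06). Beta-catenin (Ctnnb1) was at -0.07 ± 0.07 and p120 catenin (Ctnnd1) at -0.07 ± 0.06. Other genes of the superfamily, such as Fat, Celsr and calsyntenin genes, had 2 of 14 higher and 0 lower, Cdhr1, a cadherin of photoreceptors and olfactory neurons (0.81 ± 0.08), and calsyntenin Clstn3 (0.32 ± 0.08). The desmosomal Dsc and Dsg genes were not kept.

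Of the genes of cadherin shedding and cleavage, 2 of 9 tested were higher and 0 lower. The metalloprotease Mmp2 was at 0.54 ± 0.07 and presenilin 2 (Psen2) at 0.32 ± 0.06, while Adam10, the main sheddase of N-cadherin, was at -0.11 ± 0.06 and did not pass. Of the repressors that bind the E-box, Snai1, Snai2, Snai3, Twist1 and Twist2 were not kept, and 0 of the 4 tested passed by limma, 1 with an unadjusted p under 0.05, Zeb2 at -0.31 ± 0.07 (adjusted p = 0.0520). Of 13 genes of protocadherin promoter choice and silencing, among them Ctcf (-0.20 ± 0.06) and the cohesin genes, 0 passed by limma. An unadjusted p under 0.05 was seen in 3, near the background of 25.6%. Their ratio was below 0 in 12, with a median of -0.06, and 9598 of all 20604 features were below 0. Of 14 signalling partners of protocadherins 1 was higher, Cyfip1 of the WAVE complex (0.34 ± 0.06), and 0 were lower. Without replicate 3 or without replicate 4, Vcl, Clstn3, Mmp2, Psen2 and Cyfip1 did not pass (adjusted p between 0.0774 and 0.194), while Pkp2 and Cdhr1 did.

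Markers of other cells moved in the same RNAs. Of the microglia and macrophage markers 9 of 10 tested were higher, by 0.95 to 2.31 on the log2 scale, and the median of the 10 was 2.07. Cx3cr1 and C1qa were well above background on 2 WT arrays, and Tyrobp and Trem2 on 1. These genes were thus kept through APPswe/PS1dE9 alone, where they were high, and their WT values lay near the detection limit. Their summed log2 level ran from 13.64 to 14.04 in APPswe/PS1dE9 and from 13.13 to 13.43 in WT, a smaller gap because the sum is mostly the signal of Itgam, the marker that did not pass (0.11 ± 0.10). Of the choroid plexus and ependyma markers 6 of 8 were higher, with summed levels from 13.35 to 13.88 against 12.50 to 12.71, and of the astrocyte markers 4 of 6, from 17.05 to 17.20 against 16.58 to 16.88. Of the neural progenitor markers 2 of 6 were higher, Vim (0.97 ± 0.08) and Nes (0.55 ± 0.13), and 1, Hes5, was lower (-0.63 ± 0.07), with summed levels that overlapped (16.85 to 16.96 against 16.52 to 16.92). Of the neuronal markers 0 of 6 were higher and 1, Dcx, was lower, and their summed levels overlapped (16.26 to 16.45 against 16.38 to 16.64). Of the fibroblast and mural markers 2 of 7, Lum and Pdgfrb, were lower and 0 higher, with summed levels that overlapped (12.61 to 13.40 against 12.48 to 12.93). The ratio was below 0 in 5 of the 7 and above 0 in 2, Cspg4 (0.32 ± 0.09) and Acta2 (0.46 ± 0.19). Lum was well above background on 1 APPswe/PS1dE9 array and 4 WT arrays, so it was kept through WT alone, where it was high. Of the 5 endothelial markers tested 2 were higher, Egfl7 (0.30 ± 0.07) and Flt1, which was not well above background in WT RNA, and their summed levels overlapped (11.89 to 12.13 against 11.62 to 12.03). Of the 5 epithelial markers Epcam and Cldn4 were not well above background in any RNA, and Krt8 and Cldn3 were so in 1 APPswe/PS1dE9 RNA and 0 WT RNAs. Krt18, the one tested, was at 0.43 ± 0.10 and above 0 on 4 of 4 arrays (adjusted p = 0.0517 by limma). It was well above background on 3 APPswe/PS1dE9 arrays and 2 WT arrays, so it was kept through APPswe/PS1dE9 alone, where it was higher. Its WT values lay near the detection limit. The part of these cells in the ratios of Pcdh7, Pcdhb17 and Cdh13 was not tested.

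The calls were set against 13 other ways of processing the arrays. Pcdh7 was negative in all 13, between -0.72 and -0.32, and past the threshold in 9. Pcdhb17 was negative in all 13, between -0.43 and -0.30, and past the threshold in 5. Cdh13 was positive in all 13, between 0.11 and 0.27, and past it in 2. Those 2 were the filter on both genotypes and the mean over probes, which left its ratio unchanged at 0.25. The alternatives are not independent checks, since some leave a gene's values as they were and the deposited table repeats the processed signals. Cdh15 passed in 3, Cdh8 in 3, Cdh12 in 2, Cdh10 in 2 and Pcdh8 in 1, each without a change of sign. Pcdhb13, kept through WT alone, passed in 2 of the 12 that gave it a value and was negative in all 12. It was at -0.62 with the processed signals (adjusted p = 0.0280 by limma), and the other pass was with the deposited table of the same ratios. Pcdha11 and Pcdhb6 passed in 1 each, at 0.35 and 0.46 without replicate 1 (adjusted p = 0.0292 and 0.00753), and both changed sign without replicate 2, to -0.15 and -0.03.

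**Figure D4:**
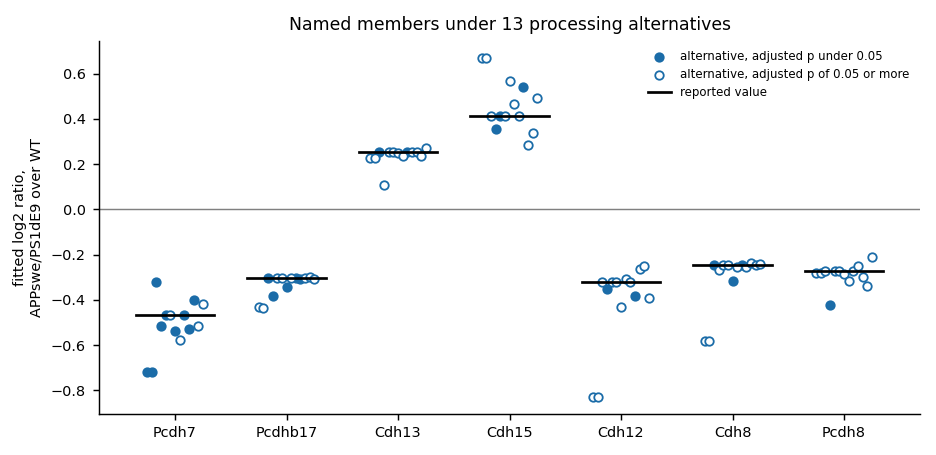
Fitted log2 ratio (vertical axis) of 7 genes under 13 processing alternatives. Filled points have an adjusted p under 0.05, open points do not, and the bar is the reported value; no gene crosses 0, and Pcdh7 has the most filled points.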

How the data were processed

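Per the labels, differentiated neural cultures of 2 genotypes were compared on 4 Agilent two-colour arrays. The authors deposited scanner files that give, for every spot and its local background, an unnormalized median intensity. These deposited files also give processed intensity values and their log10 ratio, with background subtraction and dye normalization by Feature Extraction 11.0.1.1, per the file headers. All arrays share 1 slide and 1 scan and were designed on mm9, as those headers state. The deposited value table matched log2 ratios of the processed signals, APPswe/PS1dE9 over WT and not centred, with column medians of -0.0797, -0.155, -0.0373 and -0.0378.

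From the median signals (the planned design named the foreground signal without its statistic), the background was removed in limma 3.58.1 (R 4.3.3) with normexp (offset 50). Each array was then normalised by loess, in which control and outlier spots had weight 0 before they were left out. The offset draws ratios of dim spots towards 0. Probes well above background in 1 genotype on at least 3 arrays were kept, 26929 of 55681, and named by accession through RefSeq (GRCm38.p6, used for names, gene order and promoter windows); 27509 probes matched 20887 symbols. The brightest probe stood for a gene, which gave 20604 features. limma's lmFit and eBayes fitted genotype and dye terms on 2 residual and 4.13 prior degrees of freedom, two-sided, with Benjamini-Hochberg adjustment over all features at 0.05. Channel levels followed Aquantile. The fit was tested on simulated data. The number of arrays limits the precision.

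Genes named are those past the threshold, the highest and lowest of each family, Cdh1, Cdh2, Cdh5, Cdh11, Pcdh19 and Pcdh11x, and up to 4 past the threshold in each list of partners; other names were chosen after their values were seen. The genes and the lists were chosen with earlier results of these data known.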

Additional observations from a re-analysis of the deposited data

How the results depend on the processing

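Under the 13 alternatives, 30 recomputed counts stayed within 1.5 times of the reported count and 33 did not. Of the values of single named genes, 497 kept their direction and their side of the threshold, 59 lost a call, 20 gained one and 32 changed sign. Except where a sentence says otherwise, the cause was not tested. Of the 49 genes, 0 were higher with an offset of 10, with the processed signals, with the deposited value table, without a filter on dim probes (70 genes) and on the same-sex arrays, which are the 2 arrays with Xist in both cultures. 5 were lower with median centring, 1 without the dye term, and 0 without the filter and on the same-sex arrays. Median centring gave the genes 1 common SE of 0.12 and a dye term past the threshold in 38 of them. Leaving out 1 replicate gave 0 to 3 higher, 0 to 4 lower and 0 to 1 with such a dye term. That fit has 3 arrays, and 1 array stands for one dye orientation. The share of all features with such a dye term is not given for these fits. The dye counts are therefore not read as particular to the 49 genes. Over all features the higher and lower counts were 719 and 241 with the processed signals, 717 and 239 with the deposited table, and 959 and 103 without the filter, where 37017 features were tested. They were 462 and 11 on the same-sex arrays, with 2 arrays, and 369 to 2246 and 4 to 512 without 1 replicate. The lower count was 1313 with median centring and 259 without the dye term.

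The named genes that changed sign had reported ratios within 0.2 of 0, except Pcdhb6 at 0.22. With the processed signals Pcdha11 was at -0.12, Pcdh1 at -0.083, Cdh6 at -0.13, Cdh9 at -0.13 and Pcdhb18 at -0.12, and with the deposited table these were -0.12, -0.083, -0.13, -0.13 and -0.12. With median centring Pcdha11 was at -0.00077, Pcdh1 at -0.0011, Cdh22 at -0.033, Pcdh17 at -0.12 and Pcdhb18 at -0.048. The mean over probes put Pcdhac2 at 0.00041. On the same-sex arrays Pcdh15 was at 0.0062, Pcdh9 at 0.026 and Cdh9 at -0.10. Without 1 replicate the ratio ran from -0.13 to 0.021 in Cdh2, from -0.0019 to 0.20 in Cdh22, from -0.18 to 0.041 in Cdh4, from -0.023 to 0.16 in Cdh6, from -0.087 to 0.14 in Cdh9, from -0.062 to 0.12 in Pcdh17, from -0.15 to 0.046 in Pcdh19, from -0.093 to 0.040 in Pcdh9, from -0.15 to 0.35 in Pcdha11 and from -0.033 to 0.46 in Pcdhb6. A separate paired analysis was not run, because the cultures with 1 number share an array and the ratio on that array, used in every fit, is already the pair.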

Other observations

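Across the 49 cadherin and protocadherin genes, the log2 ratios of the arrays had Spearman correlations of 0.19 between replicates 1 and 2 and 0.52 between replicates 3 and 4, the pairs with the same dye orientation. Over all features these were 0.55 and 0.49. Across the orientations the correlations of the 49 genes were -0.04, 0.20, 0.47 and 0.29, and those of all features 0.11 to 0.27. The highest of them, 0.47, was between replicates 2 and 3. These are correlations across genes, which are not independent replicates, and each compares arrays of 1 slide. The mean ratios of the orientations differed in sign in 17 of the 49 genes, and in 0 of them were both beyond 0.5.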
